A study of Mus musculus with 2 samples.

Results

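Dendritic cell identity genes were examined here across cultures labelled as T helper 9 (TH9) cells, the CD4 T cell type named for interleukin 9. The set holds 10 genes of the 20647 that the arrays could be matched to: Siglech, Bst2 and Tcf4 of plasmacytoid dendritic cells, Zbtb46, Clec9a, Batf3, Ly75 and Cd209a of conventional dendritic cells, and Irf8 and Flt3, which both kinds use. They were chosen by name, and every probe whose RefSeq accession belongs to one of them was taken, 15 probes in all. One sample came from mice labelled SIRT1flox/flox-CD4-Cre, with floxed Sirt1 alleles and a Cre recombinase that the Cd4 promoter switches on in developing T cells. The other came from wild-type mice, and each sample had 1 array. Per the labels, naive CD4 T cells sorted from spleen and lymph node (CD4+, TCR+, CD62L high, CD44 low) were stimulated in both samples with antibodies to CD3 (2 µg/ml) and CD28 (2 µg/ml) plus human IL-2 at 100 U/ml, and were kept for 5 days with IL-4 at 10 ng/ml and TGFβ1 at 2 ng/ml. Age, sex and the number of mice behind each sample are not given in the sources used here.

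Dendritic cells take up antigen in tissues and present it to T cells. Plasmacytoid cells are the round, interferon-producing kind and depend on the factor E2-2, which Tcf4 encodes. Conventional cells fall into type 1, which depend on IRF8 and BATF3 and present antigen of dead cells to CD8 T cells, and type 2, which mostly prime CD4 T cells. All of them develop under the growth factor FLT3 ligand. The sort described in the labels keeps CD4 T cells and would leave dendritic cells out.

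The arrays differed in how many dim probes they could measure. On the knockout-labelled array 65.3% of gene spots were well above background, against 57.1% on the wild-type array, and the lowest such signals were 9.76 on the knockout-labelled array and 24.6 on the wild-type array. The single Sirt1 probe gave 2920 on the knockout-labelled array and 3240 on the wild-type array. The sources used here do not place the loxP sites or this probe within the gene, so the probe does not check the label, and every direction below rests on it. All 12 T cell markers were well above background on both arrays, with a summed level of 193 times the 75th percentile on the knockout-labelled array and 181 on the wild-type array. So were all 12 B cell, 9 NK cell and 6 plasma cell markers, all 7 matched neutrophil markers, and 14 of the 15 matched macrophage and monocyte markers. Of all 20647 matched genes 12955 were. The sort described in the labels would leave these other cells out, and the source of their RNA was not tested. In RNA samples, fewer cells of a type and less RNA per cell cannot be told apart. With 1 array per genotype no test was possible, and no difference below has a replicate check.

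Signals are the scanner's processed intensities, and differences are knockout minus wild-type of log2 signals, each array first divided by its 75th percentile over gene probes (a signal of 520 on the knockout-labelled array and 544 on the wild-type array). The error after ± combines the scanner software's own estimates for the 2 arrays. For bright probes that estimate was close to a fixed share of the signal, such as 6750 of 67500 for Siglech probe 1. Their differences therefore carry nearly the same error, about 0.20. This error describes the arrays and not the spread between cultures. Among probes spotted several times, the median SD between spots of one array was 0.034 on the log2 scale on the knockout-labelled array and 0.037 on the wild-type array. That SD is of 1 array, whereas the scanner error of about 0.20 is of a difference between 2, so they are unlike measures. Probes bind with different strength, so single signals of different genes are not ranked against each other. A summed level adds the probes used for a list, so its brightest probes weigh most. It is compared between the arrays and not between lists.

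Of the 10 genes, 9 had a probe well above background on both arrays, and 1 of these, Cd209a, differed by at least 2-fold. Among all 12955 genes well above background on both arrays 7.59% differed by as much. Of the 9 measured genes 7 were higher and 2 lower on the knockout-labelled array, against 50.4% and 49.6% of all genes, and 1 was at least 2-fold higher and 0 at least 2-fold lower, against 3.95% and 3.64%. The 4 measured conventional genes were all higher on the knockout-labelled array, with a median difference of 0.77, while the 3 plasmacytoid genes had a median of 0.06, and the median over all genes was 0.003. The 2 class medians were 0.71 apart on the log2 scale. With normexp, a background correction fitted to the pixel intensities with an offset of 50 added, this gap was 0.052, the conventional median was 0.31 and the plasmacytoid median 0.26. Ly75 was too dim on both arrays to count as well above background.

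**Figure D1:**
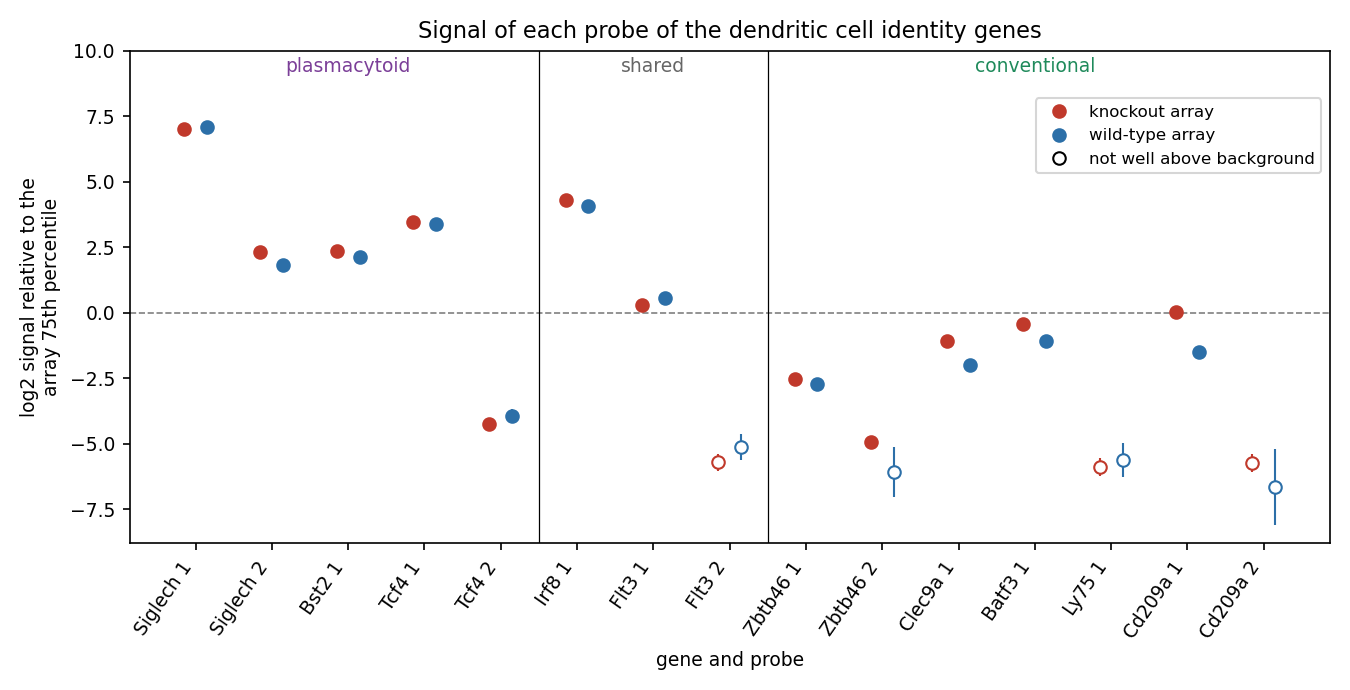
Log2 signal of each probe relative to its array's 75th percentile (vertical axis), for every probe of the 10 genes by class (horizontal axis), on the knockout-labelled array (red, left of each pair) and the wild-type array (blue); bars are the scanner error and open points were not well above background. Cd209a probe 1 stands at 0.02 on the knockout-labelled array and at -1.49 on the wild-type array, while Siglech probe 1 stands at 7.02 on the knockout-labelled array and 7.11 on the wild-type array.

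Siglech encodes Siglec-H, an endocytic lectin that marks mouse plasmacytoid dendritic cells. Its first probe gave 67500 on the knockout-labelled array and 74900 on the wild-type array, a difference of -0.08 ± 0.20. Its second probe gave 2590 on the knockout-labelled array and 1900 on the wild-type array, a difference of 0.51 ± 0.20. The probes thus point in opposite directions, with a gap of 0.60 between them. Gaps of that size or more were seen in 28.8% of the 2901 genes with several probes well above background on both arrays, and 40.2% of those genes had probes of opposite sign.

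Bst2 encodes tetherin, a membrane protein that holds budding viruses on the cell and that interferon induces in many cell types. The Bst2 probe gave 2630 on the knockout-labelled array and 2390 on the wild-type array, 0.20 ± 0.20. That difference is no larger than its scanner error. With normexp it was 0.41. Tcf4 encodes E2-2, which is also made in B cells. Its first probe gave 5670 on the knockout-labelled array and 5680 on the wild-type array (0.06 ± 0.20). Its second probe was near background, with 27.6 on the knockout-labelled array and 35.6 on the wild-type array, a difference of -0.30 ± 0.30.

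The stretches of 250 bases before the RefSeq starts (build GRCm38.p6) of Siglech and Bst2 are shown because Bst2 is both a plasmacytoid marker and an interferon-induced gene, while Siglech is the surface marker that defines these cells in the mouse. Capitals mark matches to any of 5 motifs searched on both strands: the core of the interferon-stimulated response element (GAAA and GAAA with any 2 bases between), the ETS-IRF composite element (GGAA and GAAA with any 2 bases between), the AP-1 site TGANTCA, the PU.1 site GAGGAAG and the E-box CACCTG, which E proteins such as E2-2 can bind.
Siglech, chr7:55767934-55768183, plus strand: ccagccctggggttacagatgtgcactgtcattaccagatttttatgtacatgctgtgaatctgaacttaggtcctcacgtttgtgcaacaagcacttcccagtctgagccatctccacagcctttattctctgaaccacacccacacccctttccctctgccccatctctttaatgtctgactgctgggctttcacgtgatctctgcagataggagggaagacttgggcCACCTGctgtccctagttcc
Bst2, chr8:71537473-71537722, minus strand: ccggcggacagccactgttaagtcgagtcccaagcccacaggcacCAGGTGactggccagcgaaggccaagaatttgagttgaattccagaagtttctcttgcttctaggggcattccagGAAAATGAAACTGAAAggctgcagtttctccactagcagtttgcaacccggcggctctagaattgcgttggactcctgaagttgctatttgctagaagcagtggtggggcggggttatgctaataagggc
The Bst2 window holds 2 overlapping matches to the interferon element, GAAAATGAAA and GAAACTGAAA, and an E-box on the other strand. The Siglech window holds 1 E-box, 20 to 15 bases before the start. Among 32536 distinct promoter windows of this length 2.98% hold the interferon element, 2.31% the composite element, 6.73% the AP-1 site, 10.7% the PU.1 site and 17.3% the E-box. A match describes the letters only and is not evidence of binding.

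Interferon-stimulated genes other than Bst2 were close to level between the arrays. Of the 24 listed, 21 were well above background on both arrays. Of the 21, 9 were higher and 12 lower on the knockout-labelled array, against 50.4% and 49.6% of all genes. Among them 0 differed by 2-fold, against 7.59% of all genes. The 21 had a median difference of -0.06. Ifit1, an inhibitor of viral translation, gave 1050 on the knockout-labelled array and 2180 on the wild-type array (-0.99 ± 0.20), and Ifit3 of the same family gave 1250 on the knockout-labelled array and 2250 on the wild-type array (-0.78 ± 0.20). Both are named as the largest differences of the 21. The Bst2 difference was no larger than its scanner error, so no direction is set against it.

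Further genes of plasmacytoid cells went both ways. Of 22 listed, 20 matched a probe and 19 were well above background on both arrays. Of the 19, 10 were higher and 9 lower on the knockout-labelled array, against 50.4% and 49.6% of all genes. The 19 lay between -1.05 and 0.62 with a median of 0.03. With normexp this median was -0.24. Against 3.95% and 3.64% of all genes, 0 of the 19 were at least 2-fold higher and 1 was at least 2-fold lower. That gene was Smim5, a small membrane protein gene, with 66.7 on the knockout-labelled array and 144 on the wild-type array (-1.05 ± 0.22).

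Irf8 and Flt3 serve both kinds of dendritic cell. Irf8, a transcription factor that B cells and macrophages also make, gave 10200 on the knockout-labelled array and 9270 on the wild-type array, 0.20 ± 0.20. With normexp this difference was 0.46. Flt3, the receptor for FLT3 ligand, gave 636 on the knockout-labelled array and 806 on the wild-type array by its first probe, -0.28 ± 0.20. Its second probe, with 9.94 on the knockout-labelled array and 15.5 on the wild-type array, stayed too dim on both arrays to count as well above background. Both genes stayed within 2-fold and pointed in opposite directions. B cell markers, which bear on Irf8 and Tcf4, were lower on the knockout-labelled array in 11 of 12 genes, against 49.6% of all genes. Of the 12, 2 were at least 2-fold lower, against 3.64% of all genes. The B cell markers had a median of -0.22. Their summed level was 232 times the 75th percentile on the knockout-labelled array and 273 on the wild-type array. Their part in these values was not tested.

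Cd209a had the largest difference of the 9 measured genes. It encodes the mouse counterpart of human DC-SIGN, a sugar-binding C-type lectin of type 2 and monocyte-derived dendritic cells. Its first probe gave 529 on the knockout-labelled array and 194 on the wild-type array, which is 2.85-fold higher or 1.51 ± 0.21 on the log2 scale. Its second probe gave 9.8 on the knockout-labelled array and 5.41 on the wild-type array and was well above background on neither. The difference from the first probe was 0.95 with normexp, just under 2-fold.

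Clec9a and Batf3 came next among the conventional genes. Clec9a encodes DNGR-1, the receptor by which type 1 cells recognise actin filaments of dead cells. It gave 244 on the knockout-labelled array and 137 on the wild-type array, 1.86-fold higher (0.90 ± 0.21). Batf3, the AP-1 family factor that type 1 cells require and that activated T cells also make, gave 383 on the knockout-labelled array and 256 on the wild-type array, 1.57-fold higher (0.65 ± 0.21). Both differences exceed their scanner errors, which do not describe the spread between cultures. Both were smaller with normexp, at 0.26 for Clec9a and 0.35 for Batf3.

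Zbtb46 and Ly75 gave little to compare. Zbtb46 is a repressor made by conventional but not plasmacytoid dendritic cells, and endothelium makes it too. Its first probe gave 91.2 on the knockout-labelled array and 83.1 on the wild-type array, 0.20 ± 0.22, which turned to -0.56 with normexp. The second probe was well above background on the knockout-labelled array only, with 17 there and 8.06 on the wild-type array. Its signal lies below the lowest that the wild-type array measured well above background, so no fold is given. Ly75 encodes DEC-205, an endocytic receptor of type 1 cells, and gave 8.81 on the knockout-labelled array and 11.1 on the wild-type array.

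**Figure D2:**
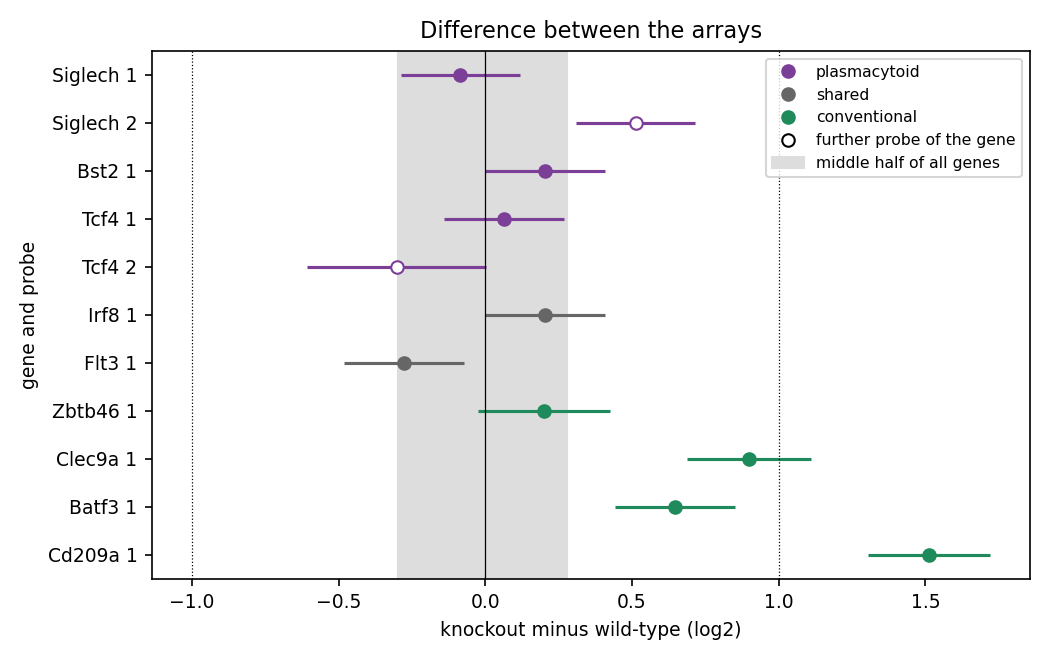
Difference between the arrays (knockout minus wild-type, log2, horizontal axis) for each probe well above background on both, by gene (vertical axis) and class (colour); bars are the scanner error, open points are a gene's further probe, the grey band runs from -0.30 to 0.28, the quartiles of all genes, and dotted lines mark 2-fold. Clec9a, Batf3 and Cd209a lie to the right of the band, at 0.90, 0.65 and 1.51, as does the second probe of Siglech at 0.51.

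The same windows before the starts of Clec9a, Batf3 and Cd209a, the 3 conventional genes with the largest differences, are shown with the same motifs in capitals.
Clec9a, chr6:129408612-129408861, plus strand: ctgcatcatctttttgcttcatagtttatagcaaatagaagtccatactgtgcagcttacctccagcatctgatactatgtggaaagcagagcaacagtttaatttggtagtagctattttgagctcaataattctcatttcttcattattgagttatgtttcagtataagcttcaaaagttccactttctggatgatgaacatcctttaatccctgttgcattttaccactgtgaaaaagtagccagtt
Batf3, chr1:191098164-191098413, plus strand: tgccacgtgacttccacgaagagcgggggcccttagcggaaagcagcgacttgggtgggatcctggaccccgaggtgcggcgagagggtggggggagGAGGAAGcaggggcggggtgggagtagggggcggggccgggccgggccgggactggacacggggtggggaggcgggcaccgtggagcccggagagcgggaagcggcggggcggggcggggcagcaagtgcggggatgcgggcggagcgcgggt
Cd209a, chr8:3748985-3749234, minus strand: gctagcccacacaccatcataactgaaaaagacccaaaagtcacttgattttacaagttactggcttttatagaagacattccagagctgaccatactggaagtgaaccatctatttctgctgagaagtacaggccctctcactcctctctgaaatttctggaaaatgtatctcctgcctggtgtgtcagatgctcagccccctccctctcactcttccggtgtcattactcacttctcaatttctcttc
The Batf3 window holds 1 PU.1 site, 153 to 147 bases before the start, and is 76% G and C. The Clec9a window, 35.6% G and C, and the Cd209a window, 44.8%, hold none of the 5 motifs as spelled here. RefSeq windows were found for 9 of the 10 genes.

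Set beside all genes of like signal, the conventional genes had these places. Clec9a, Batf3 and Cd209a fell in the second quartile of mean signal, from 120 to 544, where all genes had a median difference of -0.01 and 5.19% were at least 2-fold higher on the knockout-labelled array. Zbtb46 fell in the lowest quartile, where the median of all genes was -0.18 and 39.0% were higher. Siglech, Bst2, Tcf4 and Irf8 by their first probes fell in the highest quartile, with a median of 0.05 and 1.61% at least 2-fold higher. The shift of the conventional genes thus ran above the median of genes of like signal. Their number, 4 measured genes, is small.

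Other listed genes of conventional cells were mostly higher on the knockout-labelled array. The lists were chosen with earlier results of these data known, so they give no separate check of the conventional genes above. Among all genes 50.4% were higher by any amount and 3.95% were at least 2-fold higher, while 49.6% were lower by any amount and 3.64% at least 2-fold lower. For type 1 cells, 18 of 20 listed genes were well above background on both arrays, 14 of them higher and 4 lower, with a median of 0.52. Of these 1 was at least 2-fold higher, Cadm1, an adhesion molecule, with 158 on the knockout-labelled array and 63.4 on the wild-type array (1.38 ± 0.24). In the same list 2 were at least 2-fold lower. Cd36, a fatty acid and scavenger receptor, gave 34.5 on the knockout-labelled array and 77.9 on the wild-type array (-1.11 ± 0.24), and Cd24a, a surface glycoprotein that B cells and red cell precursors also carry, gave 3410 on the knockout-labelled array and 7280 on the wild-type array (-1.03 ± 0.20). With normexp the median of this list was 0.015. Septin3 had -0.37 by the probe used and 1.02 by its other probe.

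The type 2 genes included more with a difference of 2-fold. Of 20 listed, 19 were well above background on both arrays, 16 higher and 3 lower on the knockout-labelled array, with a median of 0.65. With the mean over probes this median was 0.37. As many as 5 were at least 2-fold higher, or 26.3% of those measured, against 3.95% of all genes, and 0 were at least 2-fold lower. Cx3cr1, the fractalkine receptor of monocytes and NK cells as well, gave 1000 on the knockout-labelled array and 369 on the wild-type array (2.84-fold higher by its first probe, and 0.86 on the log2 scale by the other). Clec10a, a galactose-binding lectin of type 2 cells and macrophages, gave 4210 on the knockout-labelled array and 1920 on the wild-type array (1.20 ± 0.20). Clec4a2, an inhibitory lectin of myeloid cells, gave 744 on the knockout-labelled array and 367 on the wild-type array (1.08 ± 0.21).

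Genes of mature and migratory dendritic cells stayed closer to level. All 17 matched genes of 18 listed were well above background on both arrays, with a median of 0.20. Of the 17, 12 were higher and 5 lower on the knockout-labelled array, against 50.4% and 49.6% of all genes. While 7.59% of all genes were at least 2-fold apart, among the 17 only Fscn1 was, the actin-bundling protein of mature cells. It gave 31 on the knockout-labelled array and 69.9 on the wild-type array (-1.11 ± 0.26). Partners, antagonists and ligands of the 10 genes had a median of 0.08 over 23 measured genes. Against 50.4% and 49.6% of all genes, 14 of the 23 were higher and 9 lower. Among these Batf2, a relative of Batf3 that can stand in for it in type 1 cells, gave 84.8 on the knockout-labelled array and 35 on the wild-type array (1.34 ± 0.29). The other 22 partners lay within 2-fold by the probe used for each. Another probe of Ikzf1, well above background on both arrays, had -1.25.

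**Figure D3:**
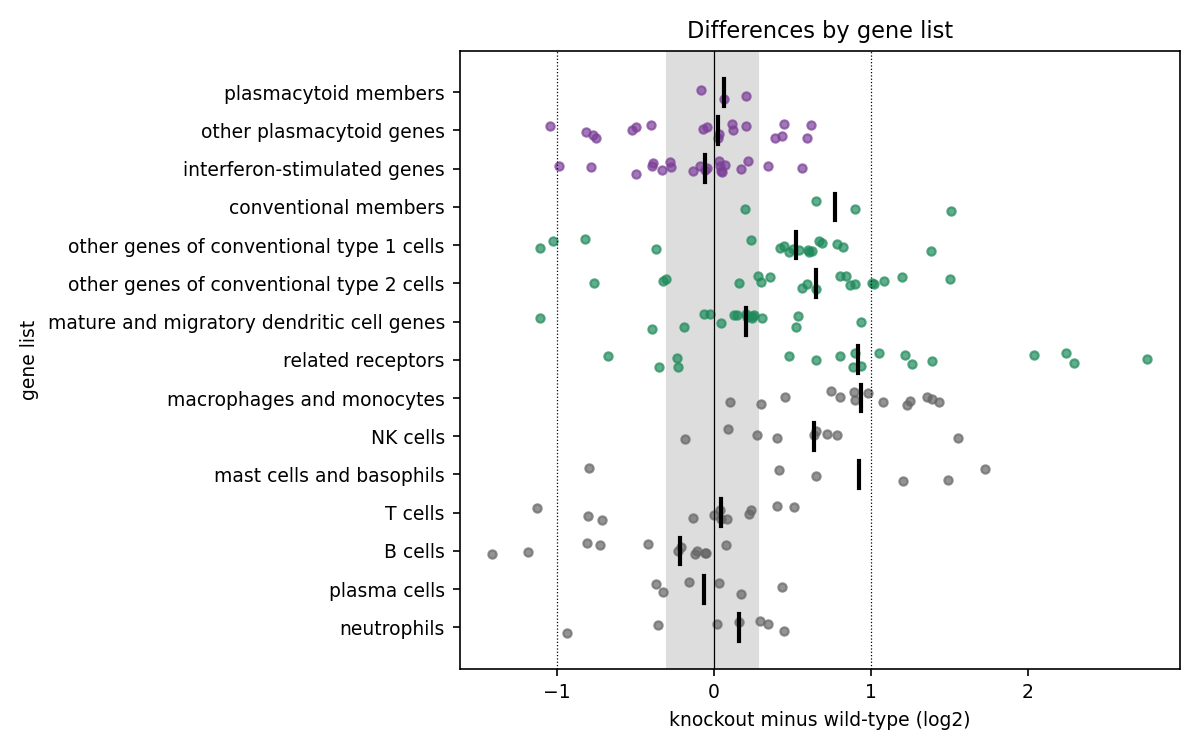
Difference between the arrays (knockout minus wild-type, log2, horizontal axis) for each gene well above background on both, by gene list (vertical axis); black bars are medians, the grey band spans the quartiles of all genes and dotted lines mark 2-fold. The plasmacytoid and interferon lists (purple) have medians of 0.06, 0.03 and -0.06, while the conventional genes, type 1 and type 2 lists (green) have medians of 0.77, 0.52 and 0.65 and the macrophage and monocyte markers one of 0.94.

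Among the receptors related to the 10 genes, the 3 named by the size of their difference belong to the family of Cd209a. That family lies side by side on one chromosome and its genes resemble each other, so a probe may bind transcripts of several. How far the probes do so was not tested, since the files used here do not hold the probe sequences. Cd209d gave 2990 on the knockout-labelled array and 660 on the wild-type array (2.24 ± 0.20). Cd209e gave 845 on the knockout-labelled array and 180 on the wild-type array (2.30 ± 0.21). Cd209f gave 566 on the knockout-labelled array and 87.5 on the wild-type array (2.76 ± 0.22). All 3 thus differed by more than Cd209a did.

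The rest of the family, singled out after its values were seen, pointed the same way where well above background on both arrays. Cd209b, the SIGN-R1 lectin of marginal zone macrophages, gave 312 on the knockout-labelled array and 136 on the wild-type array (1.26 ± 0.21), and Cd209c gave 201 on the knockout-labelled array and 51.2 on the wild-type array (2.04 ± 0.25). Cd209g was well above background on the knockout-labelled array only, with 72.1 there and 25 on the wild-type array, so no fold is given and it is not counted. With Cd209a, 6 of the 7 genes were well above background on both arrays. All 6 were at least 2-fold higher, against 3.95% of all genes, with differences between 1.26 and 2.76 on the log2 scale. With normexp all 6 were still higher, 3 of them by at least 2-fold, between 0.47 and 2.27, and with the mean over probes 5 were at least 2-fold higher.

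**Figure D4:**
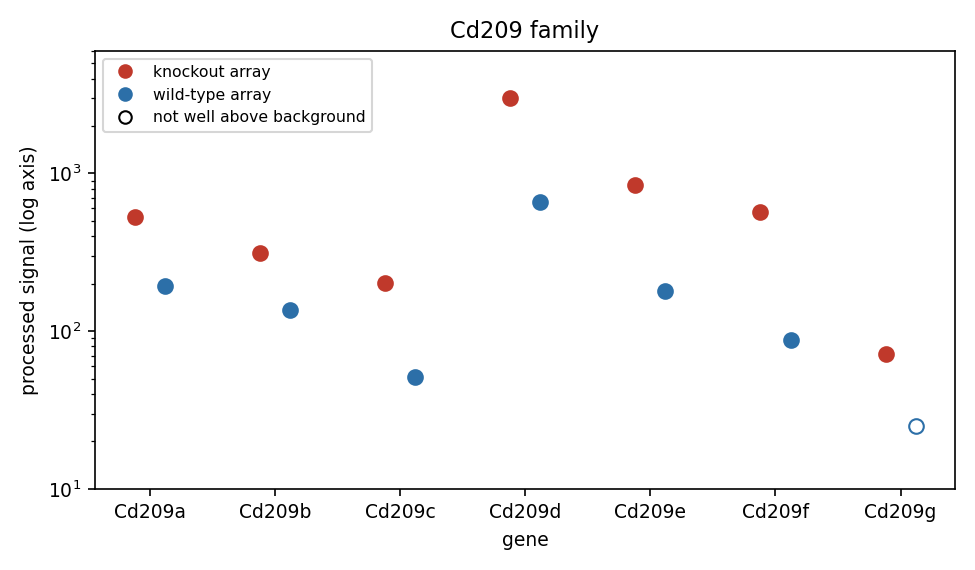
Processed signal (vertical log axis) of the Cd209 family genes (horizontal axis) by the probe used for each, on the knockout-labelled array (red, left of each pair) and the wild-type array (blue); the open point was not well above background. In the 6 genes well above background on both arrays the knockout-labelled array is higher. The difference is smallest for Cd209b, with 312 on the knockout-labelled array and 136 on the wild-type array. It is largest for Cd209f, with 566 on the knockout-labelled array and 87.5 on the wild-type array.

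Of the 24 related receptors 18 were well above background on both arrays, with a median of 0.92. Of the 18, 14 were higher and 4 lower on the knockout-labelled array, against 50.4% and 49.6% of all genes. At least 2-fold higher were 8 of the 18, or 44.4%, against 3.95% of all genes. These 8 were Cd209b, Cd209c, Cd209d, Cd209e and Cd209f, whose probes may bind each other's transcripts, with Mrc1, Clec1b and Pdgfrb. With normexp the median was 0.44. Without the Cd209 family the median was 0.80 and without the 3 genes that the macrophage list also holds it was 0.94.

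Macrophage and monocyte markers, like the conventional genes, were higher on the knockout-labelled array. By the probe used for each, all 14 macrophage and monocyte markers well above background on both arrays, of 16 listed, were higher there, against 50.4% of all genes. Of these, 6 were at least 2-fold higher, or 42.9%, against 3.95% of all genes. Their median was 0.94, or 0.59 with normexp, with a summed level of 77.7 times the 75th percentile on that array and 34.9 on the wild-type array. Marco, a scavenger receptor of marginal zone macrophages, gave 12000 on the knockout-labelled array and 4650 on the wild-type array (1.43 ± 0.20), and Mrc1, the mannose receptor, gave 684 on the knockout-labelled array and 273 on the wild-type array (1.39 ± 0.21). Mrc1 belongs to the same lectin family as Ly75. Vcam1, an adhesion molecule of red pulp macrophages, gave 4080 on the knockout-labelled array and 1670 on the wild-type array (1.35 ± 0.20 by its first probe, 0.28 by the other). Csf1r, which the type 2 and related receptor lists also hold, had 0.90 by the probe used. By another probe, also well above background on both arrays, Csf1r was lower on the knockout-labelled array, at -0.57. Neutrophil markers, also of the myeloid lineage, had a median of 0.16 over 7 genes, with 0 at least 2-fold apart, against 7.59% of all genes.

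NK cell and mast cell markers were mostly higher on the knockout-labelled array too. NK cell markers were higher in 8 of 9 genes, against 50.4% of all genes, and 1 was at least 2-fold higher, against 3.95%. Their median was 0.64, with a summed level of 70.6 on the knockout-labelled array and 33.3 on the wild-type array. Klra1, a receptor gene, holds most of the sum on the knockout-labelled array. Without it the other 8 genes summed to 23.1 on the knockout-labelled array and 17.1 on the wild-type array, with a median of 0.52. Markers of mast cells and basophils were higher in 5 of the 6 measured, of 8 listed, against 50.4% of all genes. Of the 6, 3 were at least 2-fold higher, against 3.95% of all genes. Their median was 0.92, with a summed level of 5.76 on the knockout-labelled array and 3.07 on the wild-type array. That median was 0.24 with normexp and 0.53 with no filter on background. No matched gene of these 3 lists was at 0. Cd163, Gata2 and Ms4a2 were the matched genes not well above background on both arrays. The part of these cell types in the values of Cd209a, Clec9a and Batf3 was not tested.

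**Figure D5:**
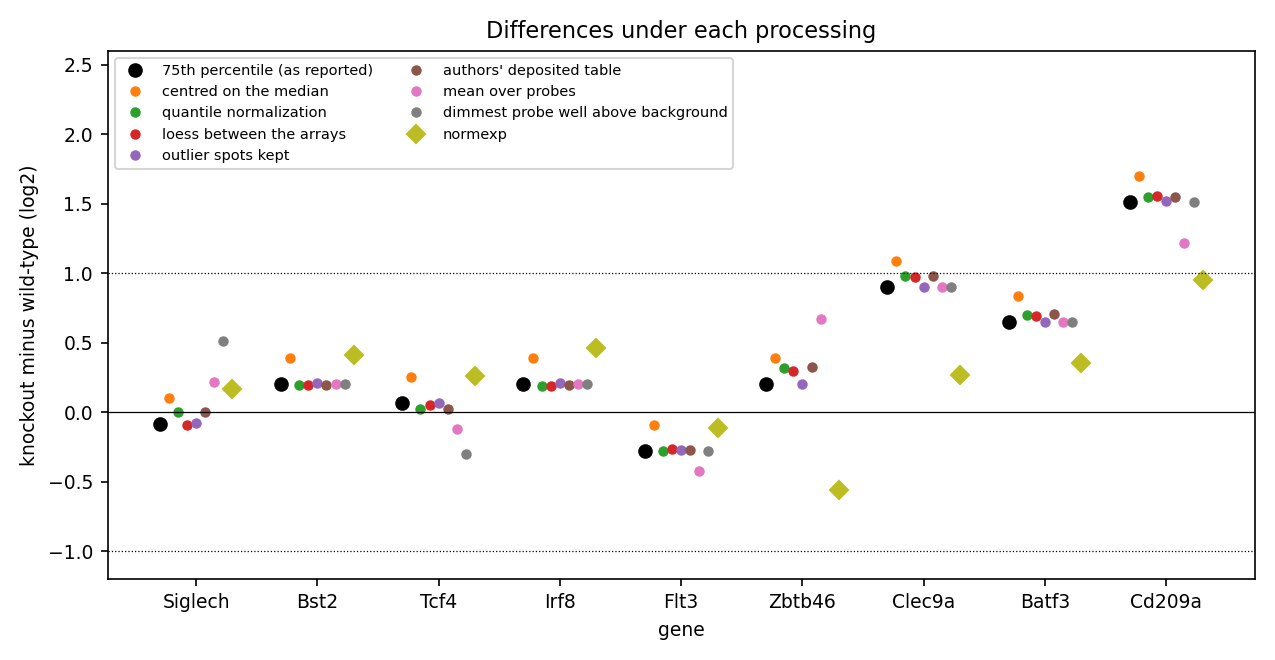
Difference between the arrays (knockout minus wild-type, log2, vertical axis) for the 9 measured genes (horizontal axis) under each processing (colour); dotted lines mark 2-fold. Under the 9 settings drawn Cd209a lies between 0.95 and 1.70 and Clec9a between 0.26 and 1.08, while Zbtb46 reaches from -0.56 to 0.67.

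The authors also deposited a separate table of log2 values. In the authors' deposited table the difference was 1.55 for Cd209a, 0.98 for Clec9a, 0.70 for Batf3 and 0.32 for Zbtb46. In that table Siglech had 0.002 and 0.51 by its 2 probes, Bst2 0.20, Tcf4 0.02 by its first probe, Irf8 0.19 and Flt3 -0.27. Over the 9 measured genes it departed from the scanner signal by at most 0.12, at Zbtb46.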

How the data were processed

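RNA of 2 cultures was hybridised to 1-colour (Cy3) mouse arrays, 1 per genotype, and the images were read with Agilent Feature Extraction 11.0.1.1, as the submitters' processing notes and the file headers state. The deposited scanner files hold a processed intensity for every spot, background-subtracted within the array, with an error and a flag for spots well above background. The deposited value table holds log2 values whose normalization and centring are not given in the sources used here. It rises with the scanner signal.

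Spots with an outlier flag were left out (138 of 43020 on the knockout-labelled array and 228 on the wild-type array; 0 were saturated), spots of a probe were averaged on the log2 scale, and each array was scaled to its 75th percentile over 39411 gene probes. Unversioned RefSeq accessions matched 27214 probes to 20647 genes; other probes and list genes without a match were not analysed here. For each gene the brightest probe was used, taken from those well above background on either array. A listed gene counted as measured if that probe was so on both, and as apart at 2-fold. The 10 genes and all lists were chosen with earlier results of these data known. The genes named from a list are up to 3 with the largest difference of at least 2-fold, or the 2 largest where lists have none; for the plasma cell and neutrophil lists they stand in the closing section. With 2 arrays no likeness of pattern between genes could be measured.

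The results were recomputed with quantile normalization, loess and median centring (limma 3.58.1, R 4.3.3), normexp with an offset of 50 on median pixel intensities, the deposited table, other probe rules, spots with flags kept, other folds and no background filter. The steps were tested on simulated data. Promoter windows are RefSeq's (GRCm38.p6). The array headers name another build, so no probe coordinates are given.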

Additional observations from a re-analysis of the deposited data

How the results depend on the processing

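Differences and medians, which have no test, were counted as moved when they shifted by more than the median scanner error of the 9 measured genes, 0.20 on the log2 scale. The count of genes 2-fold apart was counted as moved when it fell to 0 or changed by more than 1.5 times. Of the class and list medians, the gap and the count of genes 2-fold apart, 93 recomputed values stayed the same by these rules and 12 moved. Of the cell type marker medians 58 stayed the same and 6 moved. Normexp accounted for 6 of the 12 that moved among the class and list values. With it the gap between the class medians was 0.052, the conventional median 0.31 and the type 1 list 0.015. The other plasmacytoid genes had -0.24, the related receptors 0.44 and the count was 0. The cause was not tested, nor was that of the sign change of Zbtb46, at -0.56 with normexp. Of the recomputed differences of single members 59 stayed the same and 12 moved. With normexp Bst2 had 0.41 and Irf8 0.46, both above Clec9a at 0.26 and Batf3 at 0.35. Normexp also gave 0.59 for macrophage and monocyte markers, 0.24 for mast cell and basophil markers, 0.47 for neutrophil markers, and 0.26 for T cell markers, whose median of 0.04 was -0.33 with the dimmest probe of each gene. The count was 2 with centring on the median, which adds Clec9a and shifts the median of all genes to 0.19, 3 with a fold of 1.5 and 0 with a fold of 3. Mast cell and basophil markers had 0.53 with no background filter. With the mean over probes the type 2 list had 0.37 and the related receptors 0.70. Counting Irf8 and Flt3 as conventional gave a median of 0.42, and leaving out Cd209a one of 0.65; that choice, and leaving out Klra1, the Cd209 family or shared genes from lists, was made after seeing the data. Siglech lay between -0.09 and 0.51 over the settings and Tcf4 between -0.30 and 0.26, both on either side of 0. The probe of Zbtb46 chosen as its dimmest was not well above background on both arrays, so that setting gave it no value. No array can be left out with 1 per genotype. No paired analysis was possible because each genotype has 1 array. Below signals of 24.6 the wild-type array measured nothing well above background, which limits Ly75 and the further probes of Flt3, Zbtb46 and Cd209a.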

Other observations

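The named genes of further cell type marker lists had these values. Plasma cell markers split evenly, 3 higher and 3 lower on the knockout-labelled array, against 50.4% and 49.6% of all genes, with a median of -0.07. Tnfrsf17, the BCMA receptor, gave 647 on the knockout-labelled array and 501 on the wild-type array (0.43 ± 0.20), and Xbp1, a factor of secretory cells, gave 32200 on the knockout-labelled array and 43500 on the wild-type array (-0.37 ± 0.20). Neutrophil markers were higher in 5 of 7 genes, against 50.4% of all genes, with a median of 0.16. Ngp, a granule protein, gave 505 on the knockout-labelled array and 1010 on the wild-type array (-0.93 ± 0.20), and Ltf, lactoferrin, gave 4420 on the knockout-labelled array and 3400 on the wild-type array (0.44 ± 0.20). Among T cell markers Cd3e, a chain of the T cell receptor complex, gave 1020 on the knockout-labelled array and 2330 on the wild-type array (-1.13 ± 0.20). The other 11 T cell markers lay within 2-fold by the probe used for each. Another probe of Cd6, well above background on both arrays, had -1.38. Among B cell markers Blk, a kinase of the B cell receptor, gave 35.4 on the knockout-labelled array and 98.7 on the wild-type array (-1.41 ± 0.23), and Cd79a, a chain of that receptor, gave 101 on the knockout-labelled array and 240 on the wild-type array (-1.18 ± 0.21). Klra1, an NK cell receptor, gave 24700 on the knockout-labelled array and 8790 on the wild-type array (1.56 ± 0.20). Of the mast cell genes, Cpa3, a protease, gave 774 on the knockout-labelled array and 245 on the wild-type array (1.72 ± 0.21), Fcer1a, the IgE receptor chain, 148 on the knockout-labelled array and 55.2 on the wild-type array (1.49 ± 0.25), and Mcpt4, a protease, 888 on the knockout-labelled array and 404 on the wild-type array (1.20 ± 0.20).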
